A study of Mus musculus with 36 samples.

Results

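Livers of 6 F1 hybrid sons were compared with the midparent of the inbred sires, which is the mean of the B6 sire mean and the C3 sire mean and the value expected if each parental allele kept its methylation in the hybrid. The comparison used 12 male animals of the 36 samples in the series, 3 C57BL/6N (B6) sires, 3 C3H/HeN (C3) sires, 3 B6C3F1 sons of B6 dams and C3 sires, and 3 C3B6F1 sons of C3 dams and B6 sires. All were untreated and sacrificed at 20 weeks, and the sires had been mated at 10 weeks. Another 12 animals, dams of both strains and F1 daughters of both crosses, served later as a check and were also sacrificed at 20 weeks. The dams too had been mated at 10 weeks. The assay was bisulfite sequencing of the whole genome, in which unmethylated cytosines are converted and read as thymine. It gave counts of methylated and unmethylated reads at each CpG. It was averaged in fixed 500-bp autosomal windows of the mm9 genome with at least 5 CpGs and at least 30 counts in each of the 24 animals of the count tables, which gave 1456902 windows of the 4254058 that hold a CpG, with 63.9% of the autosomal CpGs. No inbred sons were measured, so hybrid genotype and generation cannot be told apart.

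In an autosomal window an F1 animal carries 1 allele from each strain. Methylation that is set by the sequence of its own allele gives a hybrid halfway between the parents, whereas methylation that depends on factors acting on both alleles may bring the hybrid towards one parent. Reads of a C3 allele differ from mm9, which is a B6 genome, at single-nucleotide variants (SNVs), and such reads can fail to map, which would pull a hybrid towards B6 without any change of methylation. The depth of C3 sires relative to B6 sires at each window, each scaled to its autosomal total, was therefore used as a check, and a second, depth-weighted midparent gave each strain the weight of its local depth.

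Few of the windows tested were called as deviating from the midparent, and in a small set of them, most low in B6, sons lay close to the more methylated sire. A window that was not called may still deviate. The sires themselves differed in 0.547% of windows, and elsewhere additivity can hardly be seen. Against the equal midparent 106 windows (0.00728% of those tested) were called, that is, at an adjusted p below 0.05 in limma and a deviation of at least 10 percentage points. Sons were above the midparent in 72 (0.00494%) and below it in 34 (0.00233%). Against the depth-weighted midparent 37 windows (0.00254%) were called, 35 above (0.0024%) and 2 below (0.000137%), and 34 windows were called against both. Of these 34, 29 had sires that differed by at least 20 points and sons that were above both midparents without lying beyond all sires. C3 was the more methylated strain in 21 of the 29 and B6 in 8. They are described first.

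Of the 21 windows where C3 was higher, 10 lay in 5 regions that share a repeated sequence. A stretch of the chromosome 13 window is shown with its longest alignment in each other region, as an example of the shared sequence. It is given 5′ to 3′ on the mm9 reference with CpGs in capitals. The regions themselves were grouped by alignments of at least 60 bases between whole windows, so a window in them need not hold this stretch.
chr13:4942150-4942245 (plus strand): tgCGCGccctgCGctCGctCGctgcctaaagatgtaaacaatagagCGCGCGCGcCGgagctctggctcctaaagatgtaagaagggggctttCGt
chr1:8401018-8401113 (plus strand): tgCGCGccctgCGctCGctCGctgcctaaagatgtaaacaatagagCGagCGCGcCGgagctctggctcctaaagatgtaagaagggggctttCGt
chr2:161337501-161337609 (minus strand): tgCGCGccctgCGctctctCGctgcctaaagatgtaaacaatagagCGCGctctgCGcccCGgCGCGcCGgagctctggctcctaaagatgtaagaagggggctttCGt
chr6:16309888-16310000 (minus strand): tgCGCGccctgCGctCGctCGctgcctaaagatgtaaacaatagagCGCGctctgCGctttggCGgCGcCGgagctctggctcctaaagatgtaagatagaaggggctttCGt
chr9:103011234-103011325 (plus strand): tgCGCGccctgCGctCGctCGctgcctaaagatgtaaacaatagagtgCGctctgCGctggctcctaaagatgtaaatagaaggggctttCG
The copies were 84.1 to 99.0% identical to that of chromosome 13 and held 8 to 12 CpGs each. No repeat annotation was used here, so the sequence is not named.

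At the chromosome 13 region, 171355 bp from the nearest protein-coding start site (Gm5444), the window chr13:4942001-4942500 had the largest upward deviation. Its 29 CpGs were methylated at 3.56%, 29.8% and 7.37% in the B6 sires and at 95.8%, 95.9% and 96.8% in the C3 sires. The B6C3F1 sons had 86.6%, 95.4% and 73.1% and the C3B6F1 sons 96.1%, 93.6% and 85.3%. All 6 sons were thus more than 40 points above the highest B6 sire, while 1 of them lay within the range of the C3 sires. The deviation from the equal midparent was 33.5 points ± 3.98 (SE, adjusted p = 0.00469 in limma) and from the depth-weighted midparent 31.3 points (adjusted p = 0.0170 in limma). The test on log2 ratios, the one weighted by counts and the quasi-binomial test did not call this window (adjusted p = 0.584, 0.345 and 0.152), nor did limma with B6C3F1 sons alone (30.1 points, adjusted p = 0.142). The test on log2 ratios sets sons against the mean of the sires' log ratios, a different value from the midparent of percentages.

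The window chr2:161337001-161337500, 402492 bp from the nearest start site (Chd6, a chromatin remodeller), was called under all 20 alternative settings tried. The B6 sires had 24.6%, 22.8% and 24.6% and the C3 sires 94.2%, 95.2% and 95.2%. The sons had 89.2% at the lowest, 91.8% in the median and 96.4% at the highest. Sons and B6 sires were far apart, and the ranges of sons and C3 sires overlapped. The deviation was 32.7 points ± 1.64 (SE, adjusted p = 1.04e-07 in limma).

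On chromosome 6, at chr6:16310001-16310500, the B6 sires had 45.9%, 14.7% and 15.2% and the C3 sires 93.7%, 92.7% and 96.2%, and the sons had 85.8% at the lowest, 93.0% in the median and 96.7% at the highest. The deviation was 32.6 points ± 3.92 (SE, adjusted p = 0.00469 in limma). It was not called in limma weighted by counts (adjusted p = 0.337) or in the quasi-binomial test (adjusted p = 0.0976), nor in limma with B6C3F1 sons alone (31.2 points, adjusted p = 0.0954). B6 sires varied more from animal to animal here than sons or C3 sires did.

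On chromosome 1 the shared sequence lies in an intron of Sntg1, which encodes a syntrophin, a cytoskeletal scaffold protein. At chr1:8400501-8401000 the B6 sires had 48.5%, 33.2% and 32.3%, the C3 sires 93.2%, 90.5% and 94.7%, and the sons 90.9% at the lowest, 91.6% in the median and 93.0% at the highest. The deviation was 26.4 points ± 2.32 (SE, adjusted p = 0.000202 in limma). The neighbouring window had 46.7% in B6 sires, 96.3% in C3 sires and 95.6% in sons as group means.

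The chromosome 9 region covers 3 adjacent windows, chr9:103010501-103012000, and the midpoint of the last one is 2654 bp from a start site of Rab6b, a small GTPase of Golgi transport. In the middle window the B6 sires had 25.9%, 29.6% and 29.5%, the C3 sires 91.1%, 94.0% and 95.3%, and the sons 89.6% at the lowest, 91.1% in the median and 94.3% at the highest. The deviation was 30.5 points ± 1.72 (SE, adjusted p = 4.11e-07 in limma). Its methylation is shown CpG by CpG in the plot by distance from the centre of the region. At the 37 CpGs within 500 bp of the centre, the B6 sires ranged from 17.2% to 44.4% and the C3 sires from 79.5% to 100%. The B6C3F1 sons ranged from 71.3% to 100% and the C3B6F1 sons from 70.0% to 98.7%. Single CpGs varied, and the C3B6F1 sons had 73.3% at one where B6 sires had 34.0% and C3 sires 92.4%. At the 14 CpGs outside the 3 windows the medians of the 4 groups were 86.9%, 81.5%, 83.5% and 83.5%.

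**Figure D1:**
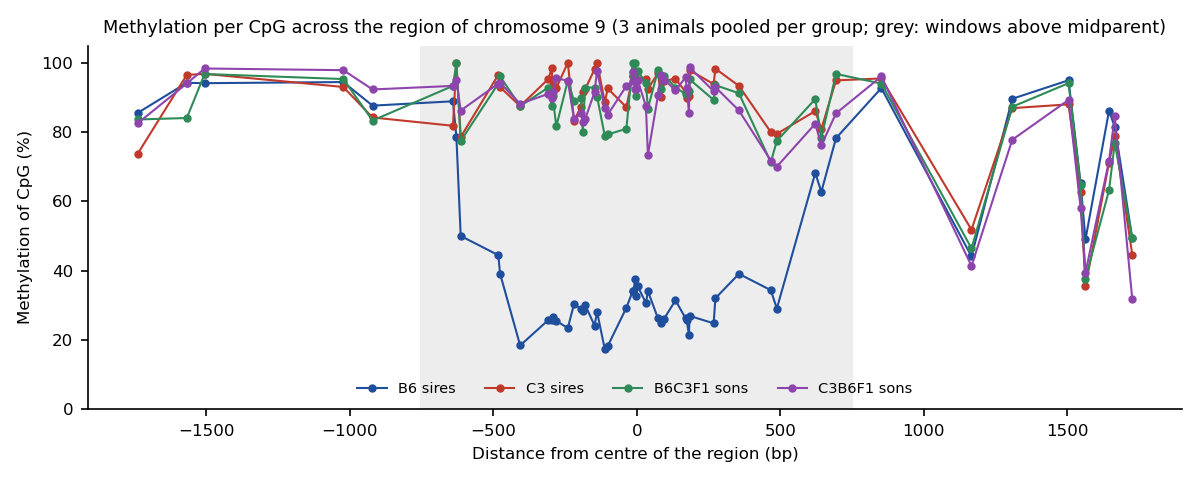
Percent methylation of each CpG (vertical axis) against its distance in bp from the centre of the chromosome 9 region (horizontal axis), with the counts of the 3 animals of a group added up. The grey band marks the 3 windows in which sons were above midparent. B6 sires drop to a median of 28.3% within 500 bp of the centre, while both crosses of sons stay with the C3 sires. Outside the band the medians of the 4 groups lie between 81.5% and 86.9%, though single CpGs differ more.

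Across these 10 windows B6 sires had 13.6 to 46.7%, C3 sires 92.8 to 96.3% and sons 85.6 to 95.6% as group means. The C3 to B6 depth ratio was 0.934 to 1.20, 9 of the 10 held no SNV and 8 had none within 1 kb. Alignments of at least 100 bases and 85% identity in mm9 numbered 1069 to 6028 per window, except at chr9:103010501-103011000, which had no other copy. Whether reads of other copies were placed in these windows was not tested. When each of the 12 males was left out in turn, all 10 were called against the equal midparent each time, and 7 to 10 of them against the depth-weighted one. The log2 ratios, with their own midparent, called 8 of the 10. Against the equal midparent count weights called 8, the quasi-binomial test 7 and a minimum of 100 counts 9. With B6C3F1 sons alone 7 were called and with C3B6F1 sons alone 9.

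The same sequence was then looked for across the genome, a step chosen after these windows had been seen. Alignments of at least 200 bases and 85% identity to the chromosome 13 window placed it in 169 tested windows. These were highly methylated in both strains, with medians of 95.0% in B6 sires, 95.6% in C3 sires and 95.6% in sons. The sires differed in 14 (8.28%, against 0.546% of the other windows), and 12 of those had balanced depth, that is, a depth ratio between 0.8 and its inverse. C3 was the more methylated strain in all 12. In 10 of the 12, from 7 regions, sons lay at 0.869 or more of the way from the B6 to the C3 sires. Most of the 10 are windows of the regions described above, so their position follows from how they were chosen. The 14 include these windows too. Outside those regions were chr1:168870001-168870500, at 0.869 and not called, and chr6:41513001-41513500, at 0.982 and called against the equal midparent only.

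The other 2 of the 12 windows were adjacent, chr6:37414001-37415000, and had sons nearer the middle. B6 sires had 14.9% and 8.59% there, C3 sires 89.9% and 88.9%, and sons 45.9% and 41.2%, a position of 0.414 and 0.406 towards C3. Over all other windows with a difference between sires and balanced depth, the median position of sons towards the more methylated sire was 0.509. The counts and medians are descriptions, since the sequence was chosen from windows called in the same animals.

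**Figure D2:**
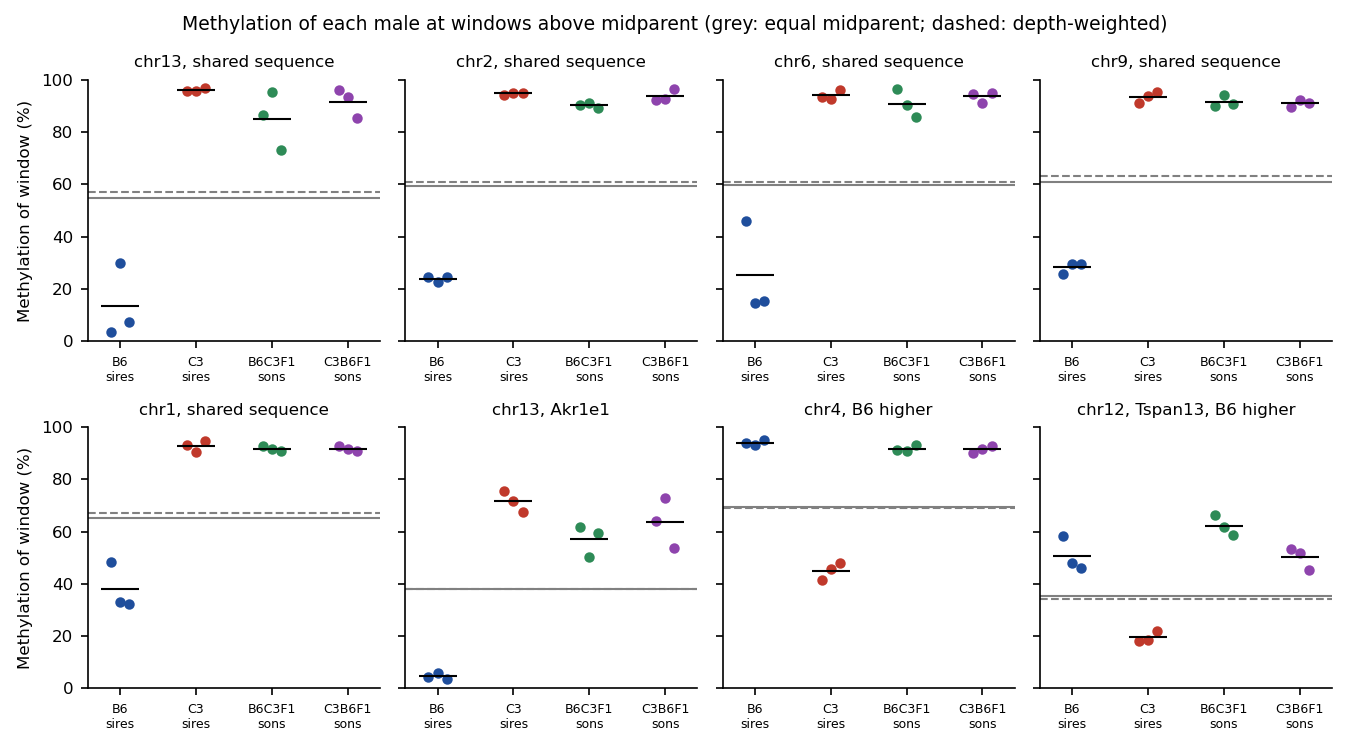
Percent methylation of each of the 12 males (points, vertical axis) at 8 windows, by group, with group means as short black lines, the equal midparent as a grey line and the depth-weighted midparent as a dashed line. In the first 5 panels, which hold the shared sequence, the 6 sons are far above the B6 sires and nearer the C3 sires. On chromosome 13 most sons lie below every C3 sire, the lowest at 73.1%. In the last 2 panels B6 is the more methylated strain and sons sit with B6.

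The remaining 11 windows with C3 higher were at other sequences, and several touched genes. Akr1e1 encodes an aldo-keto reductase, and a window over its UTR, chr13:4608001-4608500, has its midpoint 170 bp from the start site. The B6 sires had 4.46%, 5.96% and 3.46% there and the C3 sires 75.7%, 71.8% and 67.4%. The sons had 50.5% at the lowest, 60.5% in the median and 72.8% at the highest. Sons lay below or within the C3 range and nowhere near B6, with a deviation of 22.2 points ± 2.96 (SE, adjusted p = 0.0125 in limma). The window had no SNV within 1 kb, a depth ratio of 0.994 and no other copy in the genome by the alignment used.

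A UTR of Ttc25, a gene of motile cilia, gave a similar picture at chr11:100432501-100433000. The B6 sires had 16.5%, 18.3% and 12.6%, the C3 sires 80.7%, 81.0% and 83.9% and the sons 67.3% at the lowest, 70.1% in the median and 73.0% at the highest. Here the sons stayed below all C3 sires. It was the 1 window of the 29 at which sons also differed from the more methylated sire, by -11.9 points (adjusted p = 0.0287 in limma).

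At and near 4930481A15Rik on chromosome 19, 3 windows within 2.5 kb were called, of which chr19:5405501-5406000 lay outside the gene. In chr19:5407001-5407500, over a UTR and 428 bp from the start site, the B6 sires had 10.0%, 3.03% and 3.57% and the C3 sires 59.3%, 54.1% and 55.4%. The B6C3F1 sons had 62.1%, 42.7% and 48.7% and the C3B6F1 sons 67.4%, 71.2% and 72.3%. Both crosses were above the B6 sires, the C3B6F1 sons also above the C3 sires, and the deviation was 29.8 points ± 2.84 (SE, adjusted p = 0.000490 in limma). The window had 8 SNVs within 1 kb, and daughters were above their midparent but not called (adjusted p = 0.155 in limma).

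Cyp2c29 is a cytochrome P450 of the liver that oxidises steroids, fatty acids and drugs. In its intron, at chr19:39323001-39323500, the B6 sires had 68.8%, 72.2% and 62.3%, the C3 sires 92.6%, 94.8% and 92.7% and the sons 90.0% at the lowest, 93.9% in the median and 95.7% at the highest. Sons and C3 sires could not be separated, and the deviation of 12.8 points ± 1.66 (SE, adjusted p = 0.00952 in limma) was the smallest of the 29. The window is not unique sequence, since its alignments in the genome, by the limits used above, numbered 8901, the most of the 29. Whether reads of other copies were placed in it was not tested.

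A second group of like sequence held 3 of these windows, near Mrgprb5 on chromosome 7 and near Samd9l on chromosome 6. Mrgprb5 belongs to a family of G protein-coupled receptors and its window, chr7:55387001-55387500, lies 37134 bp from the start site. The B6 sires had 8.6%, 16.7% and 12.3%, the C3 sires 62.3%, 67.4% and 59.7% and the sons 52.5% at the lowest, 59.2% in the median and 63.8% at the highest, a deviation of 20.7 points ± 2.47 (SE, adjusted p = 0.00469 in limma). The ranges of sons and C3 sires overlapped in this window.

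The 8 windows with B6 higher showed the same pattern with the strains exchanged. At chr4:155510501-155511000, 26642 bp from the start of 9430015G10Rik, the B6 sires had 94.0%, 93.2% and 95.1% and the C3 sires 41.4%, 45.7% and 48.0%. The sons had 90.0% at the lowest, 91.6% in the median and 93.3% at the highest, above every C3 sire, and 1 of the 6 was within the B6 range. The deviation was 22.0 points ± 1.59 (SE, adjusted p = 1.40e-05 in limma).

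Near Slc24a3, a potassium-dependent sodium/calcium exchanger, the B6 sires had 80.7%, 87.0% and 90.4% at chr2:144947501-144948000, the C3 sires 30.4%, 29.7% and 15.6% and the sons 72.7% at the lowest, 76.7% in the median and 86.1% at the highest. The deviation was 22.8 points ± 2.87 (SE, adjusted p = 0.00711 in limma). With C3B6F1 sons alone it was 20.8 points and was not called (adjusted p = 0.154 in limma). Rxfp2, the receptor for insulin-like peptide 3, had a window over an exon, chr5:150858501-150859000, at which B6 sires had 90.2%, 88.7% and 81.0%, C3 sires 47.3%, 45.5% and 49.8% and sons 80.5% at the lowest, 84.9% in the median and 88.2% at the highest. In both windows sons overlapped the B6 sires and were well above the C3 sires. The Rxfp2 window had 14 SNVs within 1 kb and a depth ratio of 0.848. The window near Slc24a3 had no SNV within 1 kb and a depth ratio of 0.927.

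Tspan13 encodes a tetraspanin, a membrane protein, and the window in its intron is a single-copy sequence by the alignment used, with no SNV within 1 kb. The most CpG-rich part of it is shown as an example of a window without such a copy, from mm9 with CpGs in capitals. Without a repeat annotation, shorter or more diverged repeats within it are not known.
chr12:36763501-36763800 (plus strand): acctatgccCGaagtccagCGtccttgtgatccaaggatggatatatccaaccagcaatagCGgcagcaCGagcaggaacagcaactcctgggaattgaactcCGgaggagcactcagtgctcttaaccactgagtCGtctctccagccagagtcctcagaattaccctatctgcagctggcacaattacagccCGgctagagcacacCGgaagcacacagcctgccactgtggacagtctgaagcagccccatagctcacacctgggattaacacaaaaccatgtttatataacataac
The B6 sires had 58.2%, 48.1% and 46.0% at chr12:36763501-36764000 and the C3 sires 18.2%, 18.4% and 22.1%. The B6C3F1 sons had 66.3%, 61.6% and 58.5% and the C3B6F1 sons 53.3%, 52.0% and 45.5%. Every B6C3F1 son was above every B6 sire, and the C3B6F1 sons overlapped the B6 range. The deviation was 21.0 points ± 2.51 (SE, adjusted p = 0.00469 in limma), and with C3B6F1 sons alone it was 15.1 points (adjusted p = 0.412 in limma).

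Over the 29 windows the less methylated sire strain had a median of 32.8% and the more methylated one 92.6%, and sons had 85.6%. On a scale from 0 at the less methylated to 1 at the more methylated sires, sons were at 0.803 to 1.17 with a median of 0.951, and 21 windows were at 0.9 or more. With B6C3F1 sons alone 17 of the 29 were called against the equal midparent, and with C3B6F1 sons alone 16. These positions follow from how the windows were chosen and are given as a description. Of the 34 windows called against both midparents, 18 (52.9%) had no SNV within 1 kb, against 60.9% of all windows tested and 13.5% of those at which sires differed. Their median depth ratio was 1.03, and the depth weights had entered their choice. The windows were 19 intergenic, 6 intronic, 1 exonic and 3 over a UTR among the 29, and 3 had a midpoint within 1 kb of a protein-coding start site. Of the 29, 15 (51.7%) had 100 or more near copies in mm9, meaning alignments of at least 100 bases at 85% identity or more, against 18.6% of every 4000th window tested and 22.2% of the 72 windows lost with depth weights. The share was not taken over the windows at which sires differed, from which the 29 come. Several of the 15 are also neighbours in the same region.

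Daughters gave a check in animals that the comparison of sons had not used. The 6 F1 daughters were compared with the midparent of the 6 dams in a fit over the 12 females alone, and 1938 windows (0.133%) were called, 1713 with daughters above (0.118%) and 225 below (0.0154%). Dams had borne pups and daughters had not, so hybrid genotype and breeding history cannot be told apart in this count. At all 29 windows near the more methylated sire daughters were on the same side of their midparent as sons, and 21 of the 29 (72.4%) were called. The daughters lay at a median of 0.921 between the dams, with 27 of 29 at 0.75 or more. Among the 10 windows in the regions of the shared sequence 9 were called. The B6 dams had 24.2 to 45.4% there, the C3 dams 90.7 to 96.8% and daughters 85.6 to 94.7%.

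Single windows differed in how well daughters matched. At chr2:161337001-161337500, daughters had 91.5% ± 1.58 (SD, n = 6) and deviated by 28.0 points (adjusted p = 1.17e-06 in limma). At the Akr1e1 window daughters had 52.3% ± 5.66 (SD, n = 6) and were above the dams' midparent of 39.4%, but the difference was not called (adjusted p = 0.182 in limma). The Tspan13 window was likewise not called in daughters (adjusted p = 0.296 in limma). Over all windows tested 49.9% of daughters' deviations had the sign of the sons'. Over the windows at which sires differed this share was 69.7%, and daughters were called on the side of the sons in 4.03%.

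**Figure D3:**
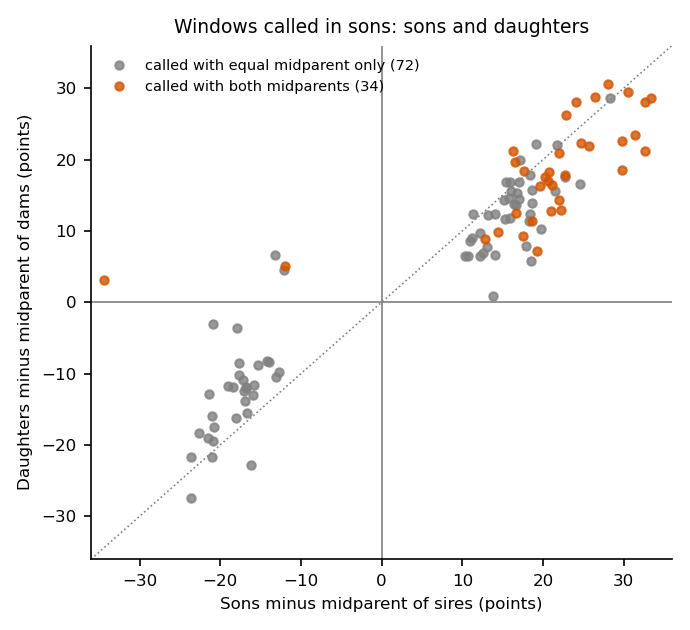
Deviation of sons from the midparent of sires (horizontal axis) and of daughters from the midparent of dams (vertical axis), both in percentage points, at the 106 windows called in sons. Orange points are the 34 windows called against both midparents and grey points the 72 called against the equal midparent only, with a dotted line of equal deviation. Daughters share the direction in 32 of the 34 and in 70 of the 72.

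The 72 windows that were called only against the equal midparent had a median depth ratio of 0.371, and 50 of them were below 0.5, against 2.09% of all windows tested. Over all 106 windows called against the equal midparent, sons lay towards B6 in 66. Of these, 39 had B6 as the more methylated strain and 27 had C3, so that sons lay towards B6 whichever strain was higher. With depth weights 8 of the 39 and 0 of the 27 were also called. None of the 28 windows of the 106 with sons towards C3 had C3 as the less methylated strain, and 21 of the 28 were also called with depth weights. At chr9:115223501-115224000, with a depth ratio of 0.202, B6 sires had 31.2%, 33.1% and 29.7%, C3 sires 93.3%, 93.9% and 87.5% and sons 33.9% at the lowest, 39.7% in the median and 48.8% at the highest. Sons were below the equal midparent of 61.5% and close to the depth-weighted one of 41.5%. The window in an intron of Zfp933, a zinc finger gene, had a mean of 97.1% in B6 sires and 87.7% in sons, with 31.2%, 42.2% and 46.7% in the C3 sires, and the deviation went from 19.1 points to -0.231 with depth weights. Of the 72, 11 were linked to the 10 windows above by chains of alignments of at least 60 bases, 1 of them the Zfp933 window. Such chains can pass through other repeats, so these windows need not hold the sequence shown above. Daughters were on the same side as sons in 70 of the 72 and called there in 34, so that a shared direction in both sexes was seen in the 72 windows as well as in the 34.

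The position of sons followed depth over all windows with a strain difference, not at called windows alone. The sires differed in 7967 windows (0.547%), B6 being higher in 3994 (0.274%) and C3 in 3973 (0.273%), and position was counted from 0 at C3 to 1 at B6. Where the depth ratio was below 0.25 the median position was 0.837 and B6 made up 0.821 of the depth. Between 0.25 and 0.5 these values were 0.714 and 0.712, and between 0.5 and 0.8 they were 0.615 and 0.604. At balanced depth the position was 0.536 with a B6 share of 0.500. The 27 windows with a ratio over 2 had a position of 0.321 and a share of 0.278. The share of windows called fell in the same order, from 0.923% below 0.25 to 0.00296% at balanced depth.

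**Figure D4:**
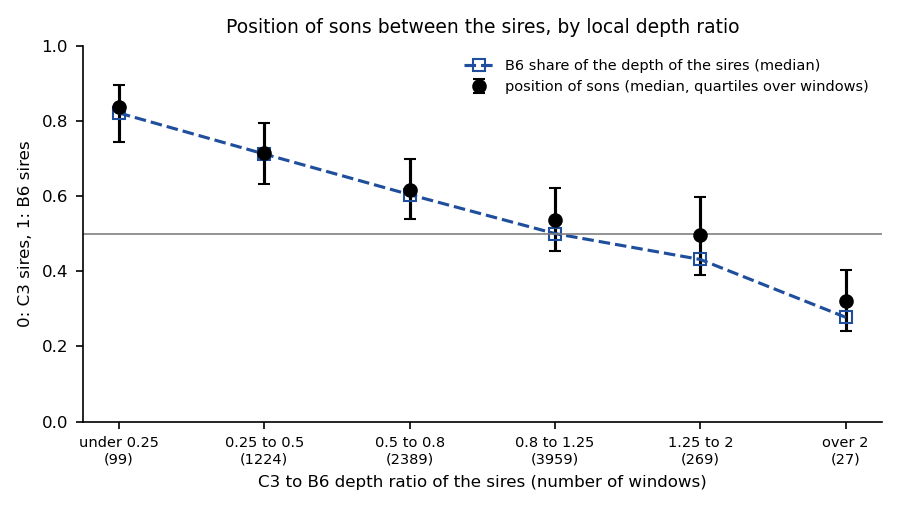
Median position of sons between C3 sires (0) and B6 sires (1) on the vertical axis, with bars from the lower to the upper quartile over windows, in 6 classes of the C3 to B6 depth ratio of the sires on the horizontal axis. Open squares are the B6 share of the sires' depth. The position falls from 0.837 to 0.321 across the classes and follows the share, lying above it in every class.

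The share called was also higher with more SNVs. Windows without an SNV were called in 0.00449% and windows with 6 or more in 0.0408%. At balanced depth the values were 0.00241% without an SNV, 0.00665% with 1 or 2 and 0.00212% with 3 to 5. The 7679 windows with 6 or more were too few for their count of 0 to be read at these rates. Sires also differed more often with more SNVs, over all depths in 2789 of 1135200 windows without an SNV and in 555 of 19612 with 6 or more. Beside these 2789 and 555 windows, 51 and 8 were called. Whether SNVs go with deviation apart from strain differences was not tested.

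Where depth was balanced, sons lay near the middle at most large strain differences. The sires were at least 40 points apart in 443 windows with balanced depth, and the median position of sons towards the more methylated sire was 0.507, with quartiles of 0.440 and 0.579. It was 0.560 in the 217 windows with B6 higher and 0.465 in the 226 with C3 higher, so that sons leaned towards B6 in both. Sons were at 0.9 or more in 13 of these windows, 12 of them with C3 higher, and at 0.1 or less in 0. In all 13 daughters were at 0.75 or more between the dams, and 8 of the 13 had no SNV within 1 kb, against 52 of the 443. Most of the 13 are windows of the regions with the shared sequence described above, and several are neighbours. The windows are a description, since position is what picks them.

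**Figure D5:**
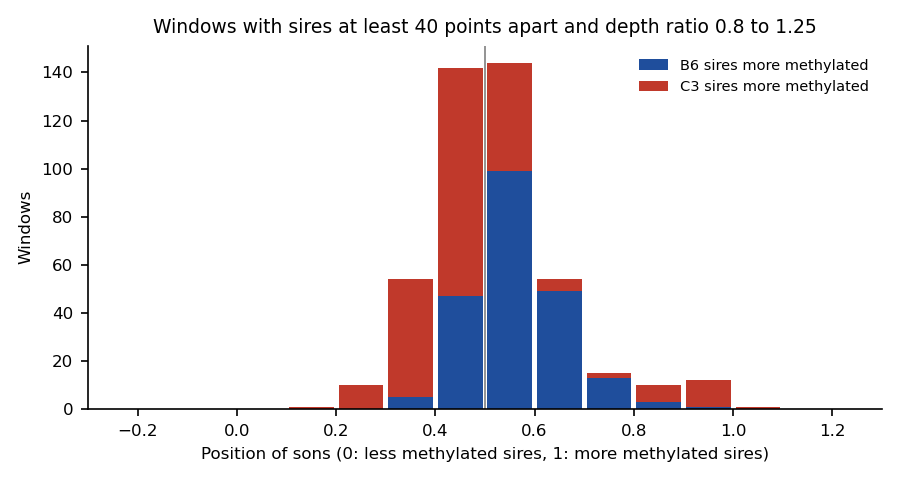
Number of windows (vertical axis) by the position of sons between the less methylated (0) and the more methylated sires (1) on the horizontal axis, for the 443 windows with sires at least 40 points apart and balanced depth, stacked by the strain that is higher. Most windows lie between 0.4 and 0.6, a few lie near 1, mainly where C3 is higher, and none lie near 0.

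Windows in which sons left the range of all sires were few. Sons were above all sires in 2 of the 106 called windows and below all sires in 5. Over all windows tested, called or not, all 6 sons were above all 6 sires in 0.0896% and below them in 0.108%. The B6C3F1 and C3B6F1 sons differed from each other in 3 windows (0.000206%), none of which was called against the midparent. Near Bmf, a promoter of cell death of the BH3-only family, chr2:118380001-118380500 had 44.7%, 47.9% and 36.3% in B6 sires, 38.9%, 41.7% and 39.8% in C3 sires and 55.9% at the lowest, 61.6% in the median and 64.1% at the highest in sons. The deviation was 19.2 points ± 2.41 (SE, adjusted p = 0.00671 in limma). It was of the same size but not called with B6C3F1 sons alone (19.3 points, adjusted p = 0.0925 in limma) or C3B6F1 sons alone (19.1 points, adjusted p = 0.0883 in limma). Daughters had 58.7% ± 6.37 (SD, n = 6) against a dams' midparent of 51.4% and were not called (adjusted p = 0.515 in limma). The B6 dams had 58.9%, 51.7% and 62.0% and the C3 dams 37.9%, 44.8% and 53.3%, so the B6 dams overlapped the sons. The other window with sons above all sires, chr4:138233501-138234000, had 9 SNVs within 1 kb and a depth ratio of 0.478. B6 sires had 19.7%, C3 sires 26.1% and sons 45.7% as means, and daughters had 47.3% ± 8.9 (SD, n = 6) and were called (adjusted p = 0.000296 in limma).

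The largest deviation of all was downward, in an intron of Camk1d, a calcium-dependent protein kinase, at chr2:5595501-5596000. B6 sires had 67.2%, 65.3% and 71.2%, C3 sires 77.0%, 80.0% and 80.0% and sons 24.4% at the lowest, 39.1% in the median and 55.2% at the highest, so every son was below every sire. The deviation was -34.5 points ± 3.64 (SE, adjusted p = 0.00143 in limma) and the depth ratio 0.310. Both groups of dams were as low as the offspring, at 19.2% in B6 and 36.7% in C3, with daughters at 31.0% ± 4.43 (SD, n = 6). The sires were thus higher than dams, sons and daughters there.

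The other downward windows of the rule for named windows were smaller. Jak3, a kinase of cytokine receptors in lymphocytes, had a window over an exon, chr8:74203501-74204000, with 55.2%, 46.2% and 44.3% in B6 sires, 44.4%, 47.1% and 40.8% in C3 sires and 17.6% at the lowest, 29.5% in the median and 34.1% at the highest in sons (deviation -18.0 points ± 2.65 (SE, adjusted p = 0.0312 in limma)). With depth weights it was -17.9 points and not called (adjusted p = 0.0729 in limma). It lost its call in 15 of 20 alternatives, among them all but 1 of the fits that left out a male (adjusted p = 0.0278 to 0.132 in limma) and each cross alone (adjusted p = 0.427 and 0.107 in limma). Daughters were called below their midparent (adjusted p = 0.00176 in limma). Windows near Arhgap29 (chr3:121634001-121634500) and near Aldh1a1, an enzyme of retinoic acid synthesis (chr19:20675501-20676000), deviated by -13.3 and -12.1 points. Neither was called with depth weights, and the calls were lost in 19 and 16 of 20 alternatives. In the fits that left out a male the adjusted p in limma was 0.0516 to 0.146 and 0.0313 to 0.166. Daughters were on the other side of their midparent at both and were not called (adjusted p = 0.615 and 0.576 in limma). B6 and C3 dams had means of 31.6% and 27.2% near Arhgap29, where sons had 25.6%. Near Aldh1a1 they had 23.1% and 18.3%, and sons 16.5%. Some dams were within the range of the sons at both windows.

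None of the 28 listed imprinted genes, 37 sex-biased or growth hormone genes, 22 genes of the methylation machinery, 27 hepatocyte genes or 29 metabolic and clock genes had a called window, against 0.00728% of all windows tested. Those lists held 1582, 1269, 1161, 1054 and 1217 tested windows, too few for a count of 0 to be read at that share. In limma 70, 69, 59, 75 and 113 of them had an unadjusted p below 0.05, which is 4.42, 5.44, 5.08, 7.12 and 9.29% against 5.76% of all windows. Zinc finger genes had 1 called window of 9216 (0.0109%), the one in Zfp933 given above, which is near the 0.00728% over all windows. Median deviations of the 6 lists were between -0.143 and 0.143 points, with -0.0299 over all windows. Of the symbols, 26 imprinted and 28 metabolic genes were found in the annotation, and all of the other lists.

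Mean methylation did not set sons apart. Averaged over the windows it was 78.5% ± 0.145 in sons and 78.6% ± 0.484 in sires (SD, n = 6 each, p = 0.680 by exact permutation, two-sided, whose smallest possible p is 0.00216). In the 12 males depth ranged from 19.5 to 32.3 counts per CpG, and the median standard error of a deviation was 1.56 points, and 110 windows had an adjusted p below 0.05 in limma at any size of deviation. Sons were within 2 points of the midparent in 76.0% of windows. Whole liver holds several cell types, so a change in their shares and a change of methylation within a cell cannot be told apart. Within 500 bp of start sites, 8 hepatocyte genes were at 6.44 to 68.0% in males, 6 Kupffer cell genes at 50.4 to 95.3% and 9 leukocyte genes at 71.3 to 94.3%. The 6 endothelial genes were at 1.37 to 84.8%, 4 stellate cell genes at 1.38 to 78.0% and 4 cholangiocyte genes at 0.174 to 75.4%. Low methylation at these sites was thus not particular to hepatocyte genes. The difference of sons and sires at these marker genes was -6.80 to 3.80 points.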

How the data were processed

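Per the labels and the study's methods, the authors aligned bisulfite reads of each animal to mm9 with lambda DNA added, using Bismark 0.7.8 on Bowtie 0.12.8, removed duplicates, clipped mates where they overlap and pooled each animal's libraries. The deposited values are counts of methylated and of unmethylated reads per CpG, at CpGs whose context was checked in mm9, B6 and C3. A deposited list of SNVs between the strains was also used. It holds positions and bases, with no measurement.

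Counts were added up in 500-bp windows with at least 5 CpGs and 30 counts in each animal, and percent methylation was fitted in limma 3.58.1 (R 4.3.3) with 4 group means over 12 males, trend and robust variance, and Benjamini-Hochberg adjustment over all windows. Windows are not independent of their neighbours, and p-values measure the spread between animals. Per the study's methods, the families of each cross were 3 separate ones, and the labels used here do not say which sire and son share a family. Near copies were found with BLASTN 2.17.0, and genes come from GENCODE vM1. The windows named by rule were up to 3 of largest deviation in each of 6 classes (sons beyond all sires on either side, or towards either strain with either strain higher) with balanced depth, at least 10 counts per CpG and animal, and all sons on 1 side, those of the first classes without an SNV nearby, the 3 largest at any depth ratio, and called windows of the gene lists. All others were chosen after their values were seen. The members and gene lists were chosen with earlier results of these data known. Replicate numbers were not used to pair the animals in the main fit. Depth was 19.5 to 32.3 counts per CpG in males. The alternatives were other tests and weights, count minimums, depth ratios, each cross alone and each animal left out. The scripts were tested on counts simulated for the 42678 windows of chromosome 19. There 200 windows with intermediate midparents were given a deviation of 10 points and 200 one of 20 points, and 30% and 99% were called. Adjustment was over chromosome 19 alone, and a far larger share of windows was changed than was called in the data. The shares found among the 1456902 windows tested can therefore be lower.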

Additional observations from a re-analysis of the deposited data

Results flagged for a closer look

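The reciprocal crosses of sons differed in 3 windows (0.000206% of those tested) in limma, and none of the 3 was called against the midparent. In chr2:152512001-152512500, at H13 and Mcts2, B6C3F1 sons had 92.2% and C3B6F1 sons 61.4%, a difference of 30.7 points (adjusted p = 0.000545 in limma). Daughters of the same crosses had 91.6% and 64.7%. In chr7:20108501-20109000, over an exon of Nkpd1, sons had 10.9% and 33.6%, a difference of -22.7 points (adjusted p = 0.0256 in limma), and daughters 16.2% and 33.2%. In chr7:67637001-67637500 sons had 29.3% and 6.50%, a difference of 22.8 points (adjusted p = 0.0114 in limma), and daughters 31.0% and 7.90%. Daughters thus had the order of the sons in all 3. The C3 to B6 depth ratios of the sires were 0.377, 1.16 and 0.645, with 10, 7 and 4 SNVs within 1 kb. Whether unequal depth changed the size of these differences was not tested. No animal stood apart from the other 5 sons in the 13 groups examined by Dixon's ratio.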

How the results depend on the processing

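The 106 windows called against the equal midparent became 184 with limma weighted by counts, 307 in the quasi-binomial test, 54 with at least 100 counts, 33 at balanced depth (ratio 0.8 to its inverse), 167 with all 24 animals in 1 fit, 40 with B6C3F1 sons alone, 35 with C3B6F1 sons alone, 38 at 20 points or more and 37 with depth weights. The percentage of windows with sons towards B6, 70.2, became 79.5 in the quasi-binomial test, 47.8 with at least 100 counts, 24.1 at balanced depth, 52.0 with C3B6F1 sons alone, 52.8 at 20 points and 28.1 with depth weights. The 7 windows with sons beyond all sires became 17, 22, 2, 14, 2 and 3 with count weights, the quasi-binomial test, balanced depth, all 24 animals, 20 points and depth weights. The 29 windows without an SNV within 1 kb became 57, 78, 19, 15, 13 and 15 with count weights, the quasi-binomial test, balanced depth, B6C3F1 sons, C3B6F1 sons and 20 points, and 17 had none within 5 kb. The 34 windows called against both midparents, for which all alternatives were chosen after seeing the data, became 10 with B6C3F1 sons alone, 17 with C3B6F1 sons alone and 19 at 20 points. The position of 0.586 between C3 and B6 became 0.600 with sires 40 points apart, 0.536 at balanced depth, 0.545 with 100 counts and 0.522 with depth weights. Daughters were on the side of sons in 102 of the 106 windows, and in 106 against the midparent of sires. The 1 called window in the gene lists became 0 within 1 kb of start sites. The cause of these changes was not tested.

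Leaving out 1 male in turn gave 59 to 95 called windows, 55.7 to 73.6% towards B6, positions of 0.572 to 0.597, 3 to 7 windows beyond all sires, 21 to 29 without an SNV and 15 to 37 called against both midparents. The count against the equal midparent was lowest without B6 sire 1 (59) and B6 sire 3 (63), and was 68 without B6C3F1 son 1 and 69, 68 and 65 without C3B6F1 sons 1, 2 and 3. The count against both was 15 and 19 without B6 sires 1 and 3, 19 and 22 without C3 sires 1 and 3, 18, 22 and 21 without B6C3F1 sons 1, 2 and 3, and 19 and 17 without C3B6F1 sons 1 and 2. Mean methylation of sons minus sires, -0.0876 points, was -0.215 to 0.0330. With the replicate block 85 windows were called, and 23 against both midparents. Same-numbered animals correlated at -0.0115 to 0.0205 in their deviations from group means. This cannot tell whether the numbers mark families, since members of a family need not correlate in it.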
